A study of Rattus norvegicus with 6 samples.

Results

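The genes described here are the enzymes of the methionine cycle and of homocysteine (Hcy) removal, measured by RNA-seq in primary rat brain microvascular endothelial cells (rBMECs). The set was fixed by gene symbol and holds 10 names, Mtr, Mtrr, Mat2a, Mat2b, Ahcy, Ahcyl1, Ahcyl2, Cbs, Cth and Bhmt. Of these, 9 had a row of that name among the 33566 rows of the count table, and no row was named Cth. A count minimum of 10 reads summed over all libraries left 14603 genes to test, of which 8 were members. Bhmt, at 0 counts, was the member with a row that was not tested. The rule for the set uses gene names and no measured values.

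The cells came from the brain of SD rats 18 to 22 days of age (cerebral cortex by the labels, forebrain by the study's methods) and were used after a passage in culture. The Hcy group (3 libraries) received Hcy for 24 h at a labelled dose of 100 µM, and the vehicle group (Veh, 3 libraries) received the ddH2O in which Hcy was dissolved. The same labels mention a prepared Hcy solution of 50 µM, as do the study's methods, which do not state the labelled dose for these libraries. The dose is given here as labelled and is uncertain. No genetic change is listed for either group, and the series' design text calls the libraries biological replicates without saying whether each came from its own isolation. Any p-value therefore measures the spread between these libraries.

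The methionine cycle passes a methyl group from methionine to the cell's methyl acceptors. Methionine adenosyltransferase makes S-adenosylmethionine (SAM), the methyl donor for DNA, RNA and proteins, and each transfer leaves S-adenosylhomocysteine (SAH), an inhibitor of methyltransferases. SAH is split to adenosine and Hcy, and Hcy is then either methylated back to methionine (remethylation) or passed on to cysteine (transsulfuration). In liver all of these routes are active, whereas many other tissues rely on the folate-dependent remethylation step. The comparison asks whether transcripts of these enzymes differed between cells given Hcy and cells given vehicle, and which of the routes the cells expressed.

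The rBMECs expressed the genes for SAM synthesis, SAH hydrolysis and folate-dependent remethylation in every library, although reads of Mtr may not be separable from those of a row on the other strand. Bhmt, the gene for betaine-dependent remethylation, was listed at 0 counts, and Cbs, the entry to transsulfuration, had 44 counts over the 6 libraries. None of the 8 members tested passed the test between Hcy and Veh. For 7 of them the 95% interval of the difference lay inside a 2-fold change in either direction, as it did for 72.1% of all genes tested. Of 82 other genes around the cycle that were tested, 5 did pass (2.34% of all genes tested did), and 3 of the 5 are amino acid carriers. The lists were chosen with earlier results of these data known, so these counts are descriptions only. Slc7a5, Slc1a5, Shmt2 and Aldh7a1 rose, and Slc7a8 fell. When each of the 6 libraries was left out in turn, Slc1a5 always passed. Slc7a5, Shmt2 and Aldh7a1 lost the call in 5 of the 6 fits and Slc7a8 in 2. Log2 fold changes in these fits were 0.34 to 0.43 for Slc7a5, 0.33 to 0.39 for Shmt2 and 0.32 to 0.41 for Aldh7a1. For Slc7a8 they were -0.68 to -0.54.

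Promoter sequences are shown for Ahcy and the SAM synthase gene Mat2a, whose mean levels per length were the highest and nearly equal. That of Bhmt, the member with no counts, is shown too, since the members differed widely in level. They are the 250 bases before the annotated start in RefSeq's GRCr8 tables, which had an entry for all 10 members. CG dinucleotides, the bases at which mammalian DNA is methylated, are in capitals. The intervals are chr3:164044563-164044812 on the minus strand for Ahcy, chr4:106053613-106053862 on the minus strand for Mat2a and chr2:26614430-26614679 on the minus strand for Bhmt.
Ahcy: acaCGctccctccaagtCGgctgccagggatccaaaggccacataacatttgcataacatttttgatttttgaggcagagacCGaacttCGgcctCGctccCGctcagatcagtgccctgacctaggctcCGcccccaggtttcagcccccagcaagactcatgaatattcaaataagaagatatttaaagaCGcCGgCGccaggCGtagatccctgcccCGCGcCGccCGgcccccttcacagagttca
Mat2a: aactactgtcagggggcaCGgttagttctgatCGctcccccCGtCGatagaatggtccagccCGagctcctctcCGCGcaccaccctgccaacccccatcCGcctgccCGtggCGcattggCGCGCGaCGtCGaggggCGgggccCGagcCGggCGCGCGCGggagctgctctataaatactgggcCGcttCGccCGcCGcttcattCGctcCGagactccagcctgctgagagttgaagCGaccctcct
Bhmt: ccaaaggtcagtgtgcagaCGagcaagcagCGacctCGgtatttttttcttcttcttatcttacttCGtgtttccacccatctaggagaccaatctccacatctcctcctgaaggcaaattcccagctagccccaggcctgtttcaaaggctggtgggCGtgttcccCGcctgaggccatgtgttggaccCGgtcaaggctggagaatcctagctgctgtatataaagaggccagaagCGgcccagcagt

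The Mat2a stretch held 29 CG dinucleotides, a number reached by 6.04% of the 33465 stretches of this length in the same tables. The Ahcy stretch held 15 (reached by 25.8% of stretches) and the Bhmt stretch 8 (reached by 41.6%). Among the other members the number ran from 13 in Mat2b and Cth, through 14 in Mtr, 17 in Cbs, 20 in Ahcyl1 and 21 in Ahcyl2, to 25 in Mtrr. The 10 members were thus all above the median of 5 over all stretches, the member listed at 0 counts included. Cbs, with 17, held more CG dinucleotides than Ahcy, although its level was far lower. The letters TATAAA, searched on both strands, were present in the stretches of Bhmt (starting 29 bases before the start) and Mat2a (starting 78 bases before it) and in 12.9% of all stretches. These are descriptions of sequence, and DNA methylation was not analysed here.

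Libraries held 14024997 to 16764584 counts. Levels are given as CPM, counts scaled to a common library size with edgeR's TMM factors, and levels of different genes are compared only as CPM per kb of the gene length in the deposited table. The floor of detection was taken as 3 counts in a library, which corresponds to 0.178 to 0.215 CPM and covers counting error only. In a principal component analysis the first component (31.6% of the variance) separated the groups, and the second (29.2%) set Veh replicate 3 apart from the other 2 Veh libraries. Values without that library are given beside several results. Endothelial markers were abundant, with Emcn at 526 and Cdh5 at 467 CPM per kb. The summed level of the 10 with a row was 8822 to 9293 CPM in Hcy and 7282 to 8629 CPM in Veh. In CPM the most abundant of them was Vwf, with means of 2934 in Hcy and 2288 in Veh. Summed per length, the groups overlapped slightly, at 2133.7 to 2252.1 CPM per kb in Hcy and 1927.3 to 2134.1 in Veh. Among the 9 tested, 0 passed (2.34% of all genes tested did). The log2 fold change was above 0 for 6 of the 9 and below 0 for 3. The groups did not overlap for 6 of the 9 (20.1% of all genes tested), and 5 reached 0.05 before adjustment (13.4%). Where they did not overlap, the Hcy values lay above for Tie1, Flt1, Kdr and Vwf and below for Tek and Slc2a1. Cldn5, a tight junction gene of brain endothelium, was listed at 0 counts. Some defining markers of microglia (Ptprc, P2ry12, Cx3cr1), neurons (Rbfox3, Snap25, Map2) and astrocytes (Aqp4, Slc1a2) were at 0. Other markers of these lists and of the fibroblast and oligodendrocyte lists had counts, and the most abundant of each per length were Aif1 (0.336 CPM in Hcy and 0.354 in Veh), Syt1 (2.27 and 1.25), Aldoc (15.1 and 16.7), Col1a1 (48.0 and 69.0) and Mog (9.87 and 9.89). None of these 5 passed, although the groups did not overlap for Syt1, with the Hcy values above, and for Col1a1, with the Hcy values below. Among the 8 smooth muscle and pericyte markers, the 2 most abundant, Tagln (log2 fold change -0.88, adjusted p = 0.000801 by edgeR) and Acta2 (-0.64, adjusted p = 0.0248), fell. The summed level of the 8 was 672 to 698 CPM in Hcy and 1103 to 1329 CPM in Veh. The pericyte markers Pdgfrb (2.72 CPM in Hcy and 1.64 in Veh) and Rgs5 (0.469 and 0.187) were low and did not pass. The groups did not overlap for 5 of the 8 (20.1% of all genes tested). Of these, Rgs5 and Cspg4 were higher in Hcy, and Kcnj8, Acta2 and Tagln were lower. Rgs5, Cspg4 and Kcnj8 had only 30, 45 and 46 counts over the 6 libraries. Of the 8, 4 were higher and 4 lower in Hcy, so the fall of the sum is that of Tagln and Acta2.

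**Figure D1:**
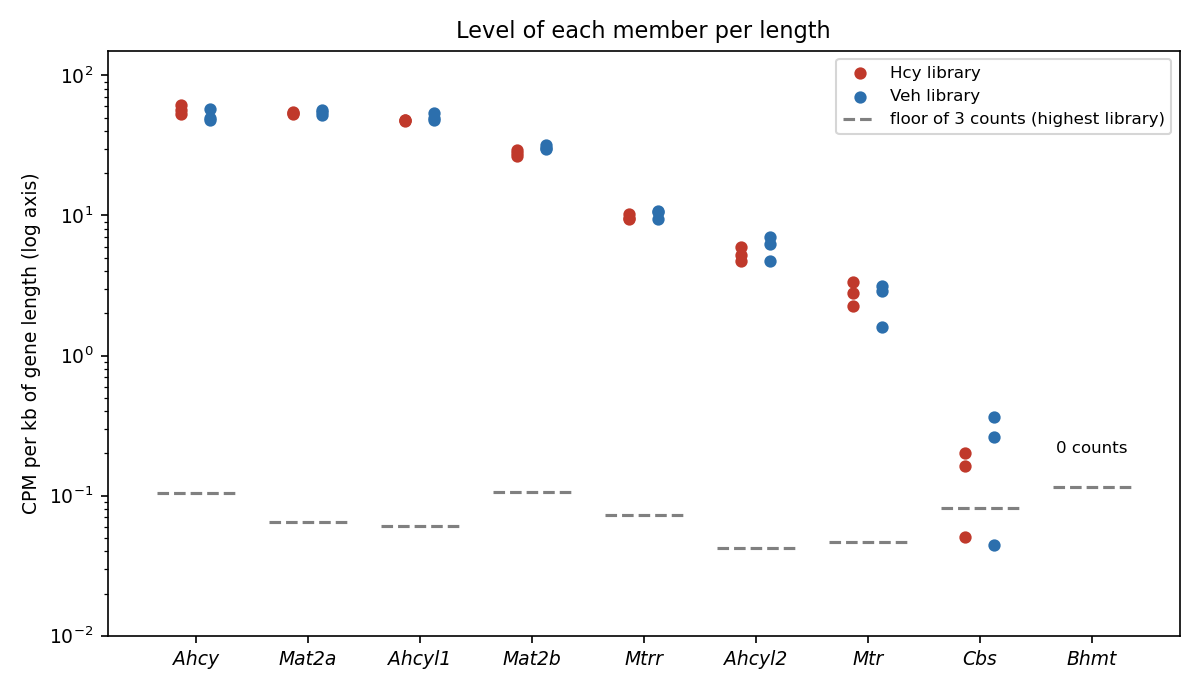
Level of each member in each library, in CPM per kb of gene length on a log axis, with Hcy libraries in red, Veh libraries in blue and a dashed line at the floor of 3 counts in the library with the highest floor. Ahcy, Mat2a and Ahcyl1 lay close together near 50 CPM per kb, Cbs lay around its floor, and Bhmt had 0 counts.

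Ordered by level per length over the 6 libraries, the members spanned a wide range. Ahcy at 54.2 ± 5.17 CPM per kb (SD, n = 6), Mat2a at 54.2 ± 1.44 and Ahcyl1 at 49.3 ± 2.30 came first, and the ranges of neighbours among these 3 overlapped. Ahcy was above Mat2a in 3 of 6 libraries, so these neighbours did not differ beyond their spread. Mat2b followed at 29.3 ± 1.85 CPM per kb, below the lowest library of Ahcyl1 in every library. Mtrr (10.0 ± 0.611), Ahcyl2 (5.63 ± 0.907) and Mtr (2.66 ± 0.636) came next, each in turn below the whole range of the one before. Cbs came last among the genes with counts, at 0.181 ± 0.124 CPM per kb. As a percentile of all genes tested, the level per length was 88.8 for Ahcy, 88.7 for Mat2a, 87.6 for Ahcyl1, 80.4 for Mat2b, 59.7 for Mtrr, 47.8 for Ahcyl2, 34.9 for Mtr and 8.98 for Cbs.

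Remethylation of Hcy to methionine can use methyltetrahydrofolate or betaine as the methyl source. Mtr encodes methionine synthase, the cobalamin-dependent enzyme of the folate route (ENSRNOG00000017593, chr17:66210461-66295014 in the deposited table, which names no build, so that this and later positions may not be in mRatBN7.2). Its level was 12.9, 15.4 and 10.3 CPM in Hcy replicates 1, 2 and 3 and 14.4, 13.3 and 7.41 CPM in Veh replicates 1, 2 and 3. The groups overlapped, and the lowest value of all was that of Veh replicate 3. The log2 fold change was 0.13 (SE 0.24, 95% interval -0.42 to 0.69), and edgeR's quasi-likelihood test gave a p of 0.885 after Benjamini-Hochberg adjustment over all genes tested. Without Veh replicate 3 it was -0.11. Mtr overlaps a row on the other strand, AABR07028349.1, which held 1519 counts against 1139 for Mtr. Whether reads were counted by strand was not given in the sources used here, so reads of this pair may not be told apart.

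Mtrr encodes methionine synthase reductase, which restores the oxidized cobalamin of methionine synthase (ENSRNOG00000017826, chr1:37743147-37774015). It was at 27.8, 30.0 and 28.2 CPM in the Hcy libraries and at 27.8, 31.9 and 31.1 CPM in the Veh libraries. Its groups overlapped, with a log2 fold change of -0.08 (SE 0.09, 95% interval -0.29 to 0.13, adjusted p = 0.791 by edgeR). Per length, Mtrr stood above Mtr in every library, by 3.03 to 6.57 times, and the highest ratio was that of Veh replicate 3.

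Bhmt encodes betaine-homocysteine methyltransferase, an enzyme known from liver and kidney (ENSRNOG00000011200, chr2:23236575-23256158). It was listed at 0 counts in all 6 libraries, which allows a level of up to 0.0955 to 0.116 CPM per kb in a library. The mean of Mtr was at least 23.1-fold above that limit. Listed zeros were common, since 28.6% of the 22250 protein-coding rows had no counts. Counts in this table can also be low for genes that every cell uses. Of 20 such genes looked at after the files were read, 19 had a row, and the lowest, Hprt1, had 12 counts over the 6 libraries, against 1393 for the next, Tbp. The 0 of Bhmt and the low counts of Cbs are read as values of those rows.

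SAM is made by methionine adenosyltransferase, which outside the liver is built from the catalytic subunit MAT2A and the regulatory subunit MAT2B. Mat2a (ENSRNOG00000013520, chr4:100296075-100303080) was at 177, 181 and 183 CPM in the Hcy libraries and at 175, 189 and 182 CPM in the Veh libraries. These 6 values lay closer together than those of Mtr, with coefficients of variation of 1.69% in Hcy and 3.73% in Veh. The log2 fold change was -0.01 (SE 0.07, 95% interval -0.16 to 0.14, adjusted p = 0.960 by edgeR), and the Hcy values lay inside the range of the Veh values. A pair of rows matched to the same protein, RGD1560523 and AABR07059072.1, held 39 counts and 1 count over the 6 libraries, and how the counting divided reads between near-identical copies is not known here.

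Mat2b (ENSRNOG00000003177, chr10:25832072-25847994) was at 54.1, 57.0 and 59.2 CPM in the Hcy libraries and at 61.2, 60.0 and 65.1 CPM in the Veh libraries. All 3 Hcy libraries lay below all 3 Veh libraries. The difference was small and did not pass the test, with a log2 fold change of -0.13 (SE 0.07, 95% interval -0.30 to 0.04, adjusted p = 0.520 by edgeR). The ratio of Mat2a to Mat2b per length was 1.93 ± 0.0539 in Hcy and 1.78 ± 0.114 in Veh (SD, n = 3 each), and the ranges of this ratio overlapped. Mat2b had the smallest p among the members. The 3 tested genes whose log2 CPM followed it most closely over the 6 libraries were LOC689757 (Pearson r = 0.996, at only 0.354 CPM), Tpd52l2 (r = 0.989) and Necap1 (r = 0.988), none of which passed the test.

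**Figure D2:**
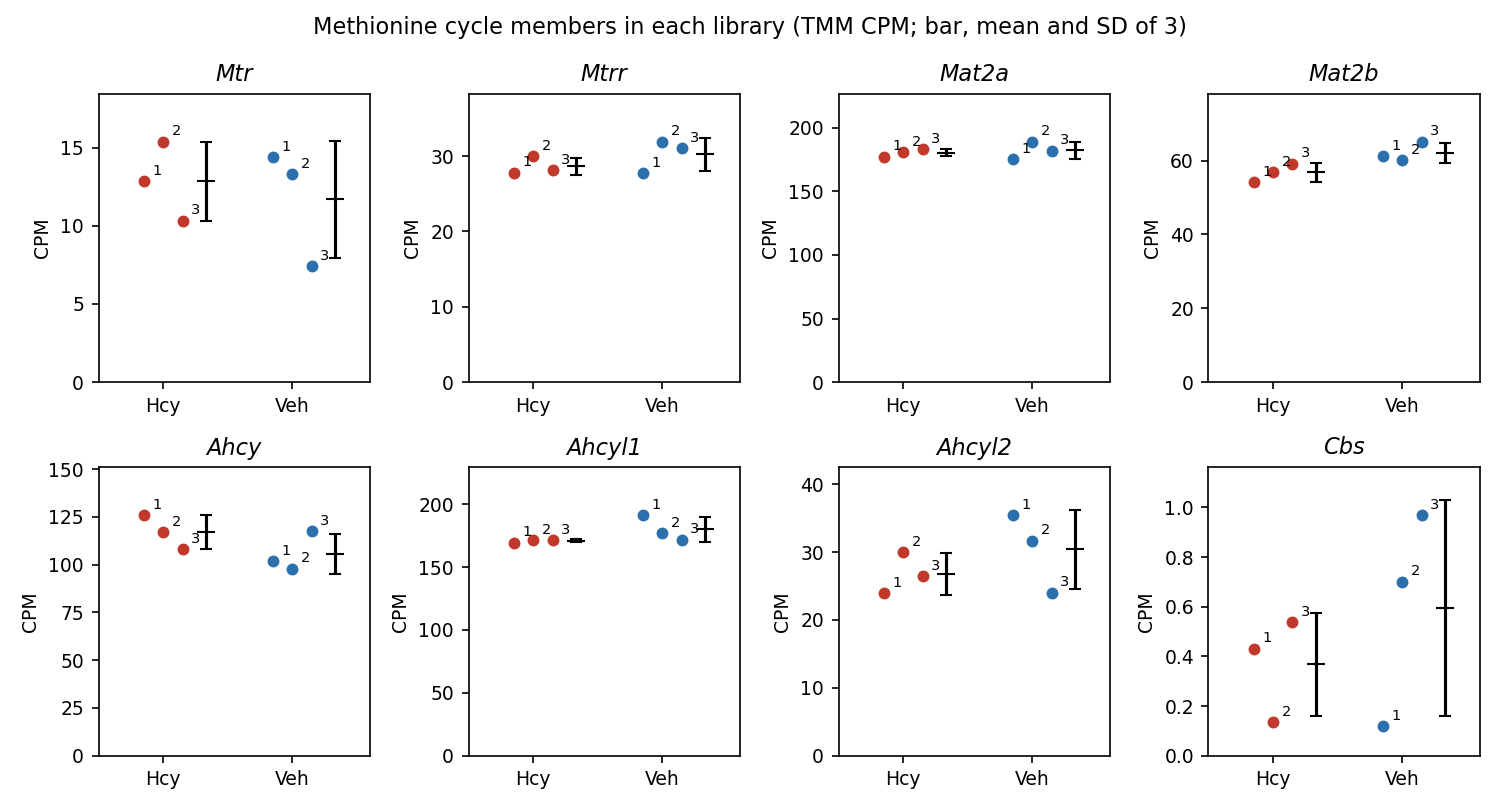
CPM of the 8 members tested in each library (points numbered by replicate, Hcy in red, Veh in blue), with the mean and SD of 3 libraries beside them, each panel starting at 0. The groups overlap except for Mat2b and Ahcyl1, and Veh replicate 3 is the lowest library for Mtr.

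SAH is hydrolysed to Hcy and adenosine by S-adenosylhomocysteine hydrolase, encoded by Ahcy (ENSRNOG00000017777, chr3:150587833-150603082). Ahcy was at 126, 117 and 108 CPM in the Hcy libraries and at 102, 98.0 and 117 CPM in the Veh libraries. Veh replicate 3 lay within the Hcy values and the other Veh libraries lay below them. The log2 fold change was 0.15 (SE 0.09, 95% interval -0.07 to 0.36), which did not pass the test (adjusted p = 0.572 by edgeR). Without Veh replicate 3 it was 0.23, and the adjusted p was 0.109.

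Ahcyl1 and Ahcyl2 encode relatives of this hydrolase. AHCYL1, also called IRBIT, is known for binding inositol trisphosphate receptors and ion transporters and is not regarded as an active hydrolase. Ahcyl1 (ENSRNOG00000018569, chr2:210438893-210473761) was at 169, 171 and 172 CPM in the Hcy libraries and at 191, 177 and 172 CPM in the Veh libraries. The groups did not overlap, but the highest Hcy and lowest Veh libraries were nearly equal, and the log2 fold change was -0.08 (SE 0.07, 95% interval -0.23 to 0.08, adjusted p = 0.719 by edgeR). Ahcyl2 (ENSRNOG00000039300, chr4:57050214-57199900) was at 23.9, 30.0 and 26.4 CPM in the Hcy libraries and at 35.4, 31.7 and 24.0 CPM in the Veh libraries. Its groups overlapped through Veh replicate 3, and its log2 fold change was -0.18 (SE 0.15, 95% interval -0.52 to 0.16, adjusted p = 0.681 by edgeR). Without that library it was -0.32, with an adjusted p of 0.122. Per length, Ahcyl1 exceeded Ahcyl2 by 7.70 to 10.2 times.

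Transsulfuration removes Hcy for good, by way of cystathionine. Cbs encodes cystathionine beta-synthase, its first enzyme (ENSRNOG00000029528, chr20:10361988-10386751). It had 6, 2 and 9 counts in the Hcy libraries and 2, 11 and 14 counts in the Veh libraries. Both Hcy replicate 2 and Veh replicate 1 were under the floor, and the groups overlapped. The log2 fold change was -0.65 with an SE of 0.76, and its 95% interval ran from -2.39 to 1.06, so that neither a 2-fold rise nor a 2-fold fall lay outside it. The adjusted p was 0.789 by edgeR, and DESeq2 gave no adjusted p for this gene. Leaving out a library in turn gave log2 fold changes from -1.15 (without Veh replicate 1) to -0.12 (without Veh replicate 3), none of which passed. No difference in Cbs was detected, and the interval is wide. Per length, Mtr ran from 1.61 to 3.34 CPM per kb over the libraries and Cbs from 0.0447 to 0.365. The ratio of their means, 14.7, is imprecise because Cbs had few counts.

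Cth encodes cystathionine gamma-lyase, the enzyme that completes transsulfuration. No row bore its name, and none is given as a value of Cth. A pair of rows named LOC103691744 was matched by the deposited annotation to the rat protein of this enzyme, a link that was looked for after the table was read. The row ENSRNOG00000010658 had 2, 9 and 8 counts in the Hcy libraries and 13, 20 and 5 counts in the Veh libraries. Its groups overlapped, and its log2 fold change was -0.94 (SE 0.63, 95% interval -2.38 to 0.47, adjusted p = 0.586 by edgeR). The row ENSRNOG00000057089 had 1 count in all. Summed per length, Cbs and these rows lay between 0.241 and 0.965 CPM per kb in a library, whereas Mtr and Mtrr summed to between 11.8 and 13.7.

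**Figure D3:**
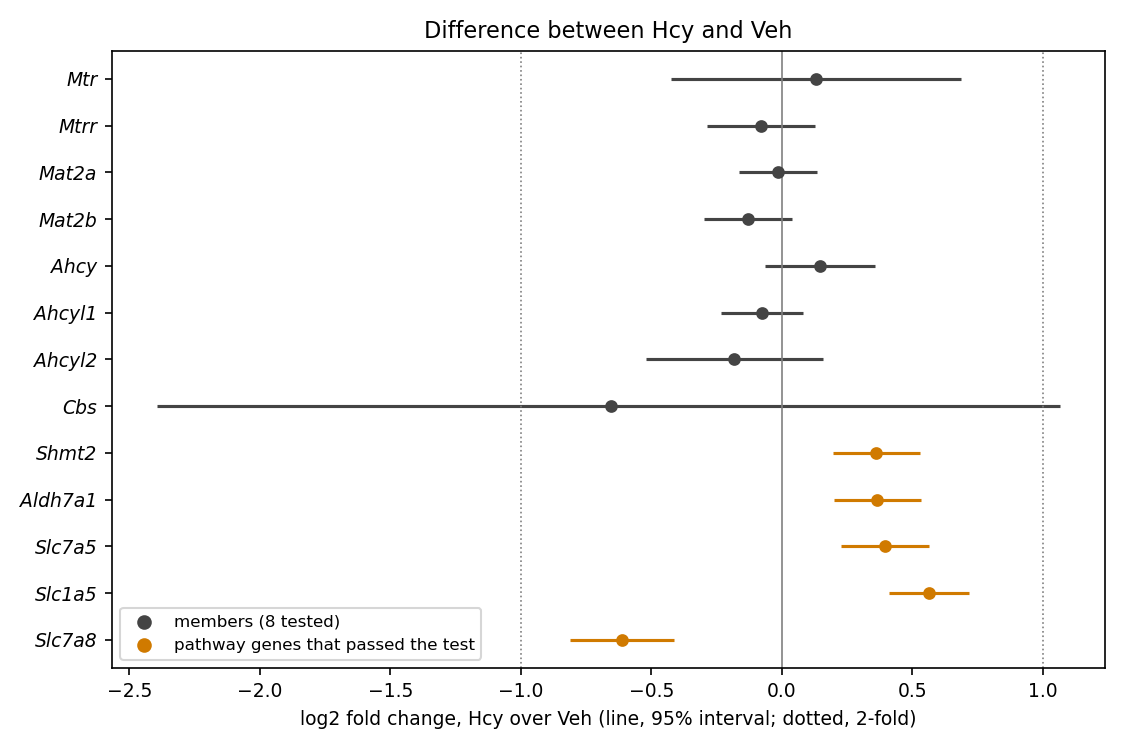
Log2 fold change of Hcy over Veh for the 8 members tested (grey) and for the 5 pathway genes that passed the test (orange), with lines for the 95% interval and dotted lines at a 2-fold change. The interval of each member crosses 0, and that of Cbs alone reaches beyond a 2-fold change.

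Over the whole table, 341 of 14603 genes (2.34%) had an adjusted p of at most 0.05 by edgeR, and 71 (0.486%) also had a fold change of at least 2. These counts moved to between 80 and 957 and between 39 and 112 when a library was left out, both highest without Veh replicate 3, so the shares over all genes are those of the fit to all 6 libraries unless stated. None of the 8 members passed, and 0 of 8 had an unadjusted p of at most 0.05, against 13.4% of all genes tested. DESeq2 called 0 of the 7 members to which it gave an adjusted p, against 5.09% of all genes to which it gave one. The groups did not overlap for 2 of 8 members, both lower in Hcy, against 20.1% of all genes tested. Of the 8 members, 2 were higher and 6 lower in Hcy, with a median log2 fold change of -0.08 beside -0.02 over all genes tested. The 95% interval, taken for each gene on its own, lay inside a 2-fold change for 7 of 8 members (72.1% of all genes tested) and inside a 1.5-fold change for 6 of 8 (55.2%). Beyond Cbs, the exception at 1.5-fold was Mtr. In bulk RNA, a change in the share of cells that express a gene and a change in RNA per cell cannot be told apart.

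The other genes of the pathway were taken from 11 lists of 94 genes, chosen with earlier results known, of which 82 were tested. Of the 82, 4 rose (1.32% of all genes tested did) and 1 fell (1.01% did). Leaving out a library moved these counts to between 1 and 12 and between 0 and 6, the highest without Veh replicate 3 (a fit in which 6.67% of all genes passed), and DESeq2 gave 10 and 4 (5.09% of all genes with an adjusted p passed). The median log2 fold change of the 82 was 0.02. Of the 4 genes of the liver-type cycle, 3 had few or no counts. Gnmt, glycine N-methyltransferase, and Bhmt2 were listed at 0 counts, and Mat1a, the liver form of the adenosyltransferase, had 10 counts over the 6 libraries. Pemt, which makes phosphatidylcholine with SAM, was the most abundant of this list, at 3.13 CPM per kb, and did not pass (log2 fold change -0.34, adjusted p = 0.596 by edgeR).

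The next list holds genes of folate and cobalamin uptake and metabolism. All 16 were tested and 1 rose (1.32% of all genes tested did), Shmt2, the mitochondrial serine hydroxymethyltransferase that loads one-carbon units onto folate. Shmt2 was at 130, 123 and 120 CPM in the Hcy libraries and at 97.9, 92.1 and 100.4 CPM in the Veh libraries. All Hcy libraries were higher, with a log2 fold change of 0.36 (SE 0.07, adjusted p = 0.0392 by edgeR). This call was lost when any library but Veh replicate 3 was left out, with adjusted p-values up to 0.189. The log2 fold change in the fits that left out a library was 0.33 to 0.39. A replicate block also ended the call (adjusted p = 0.0758 by edgeR), although libraries of the same replicate number were not taken as pairs.

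Betaine, the methyl donor of Bhmt, is made from choline. Chdh, choline dehydrogenase, had 1 count, and Dmgdh, which acts on dimethylglycine downstream of Bhmt, was listed at 0. Sardh, sarcosine dehydrogenase, which follows Dmgdh, had 1142 counts and a log2 fold change of 0.04 (adjusted p = 0.932 by edgeR). Aldh7a1, an aldehyde dehydrogenase known for lysine breakdown that can also oxidize betaine aldehyde, was at 411, 382 and 421 CPM in the Hcy libraries and at 311, 296 and 334 CPM in the Veh libraries. It rose with a log2 fold change of 0.37 (SE 0.07, adjusted p = 0.0386 by edgeR). This call was likewise lost when any library but Veh replicate 3 was left out, with adjusted p-values up to 0.220. The log2 fold change in the fits that left out a library was 0.32 to 0.41. The genes on both sides of Aldh7a1 in this route, Chdh and Bhmt, had next to no counts.

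Carriers of methionine, Hcy and cystine gave the other calls, with 2 of 11 higher and 1 of 11 lower in Hcy (1.32% and 1.01% of all genes tested). The groups did not overlap for 6 of the 11, against 20.1% of all genes tested. Slc1a5, the neutral amino acid exchanger ASCT2, was at 64.1, 66.2 and 63.0 CPM in the Hcy libraries and at 43.5, 42.8 and 44.4 CPM in the Veh libraries. Its log2 fold change was 0.56 (SE 0.07, adjusted p = 0.00483 by edgeR), and it passed in all fits that left out a library. Slc7a5, the light chain of the large neutral amino acid carrier LAT1, was at 174, 156 and 154 CPM in Hcy and at 126, 123 and 119 CPM in Veh (log2 fold change 0.40, SE 0.07, adjusted p = 0.0297 by edgeR). Its call was lost without any library but Veh replicate 3, with adjusted p-values up to 0.148. Its log2 fold change was 0.34 to 0.43 when a library was left out. Slc7a8, the related light chain LAT2, was at 38.6, 39.4 and 36.4 CPM in Hcy and at 63.8, 58.0 and 53.0 CPM in Veh. It fell by 0.61 on the log2 scale (SE 0.09, adjusted p = 0.0114 by edgeR), a call lost without Hcy replicate 1 (adjusted p = 0.0627) or Hcy replicate 3 (0.0799). Its log2 fold change was -0.68 to -0.54 when a library was left out. Slc1a1, a glutamate and cysteine carrier named after its values were seen, had a log2 fold change of -0.44 and an adjusted p of 0.0505 by edgeR, just outside the threshold. It was inside it with filterByExpr (0.0448), with DESeq2 (0.0268) and without Veh replicate 3 (0.0357), and outside it in the other fits that left out a library (up to 0.214). The cystine carrier Slc7a11, also named afterwards, had a log2 fold change of -0.18 (adjusted p = 0.667 by edgeR).

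**Figure D4:**
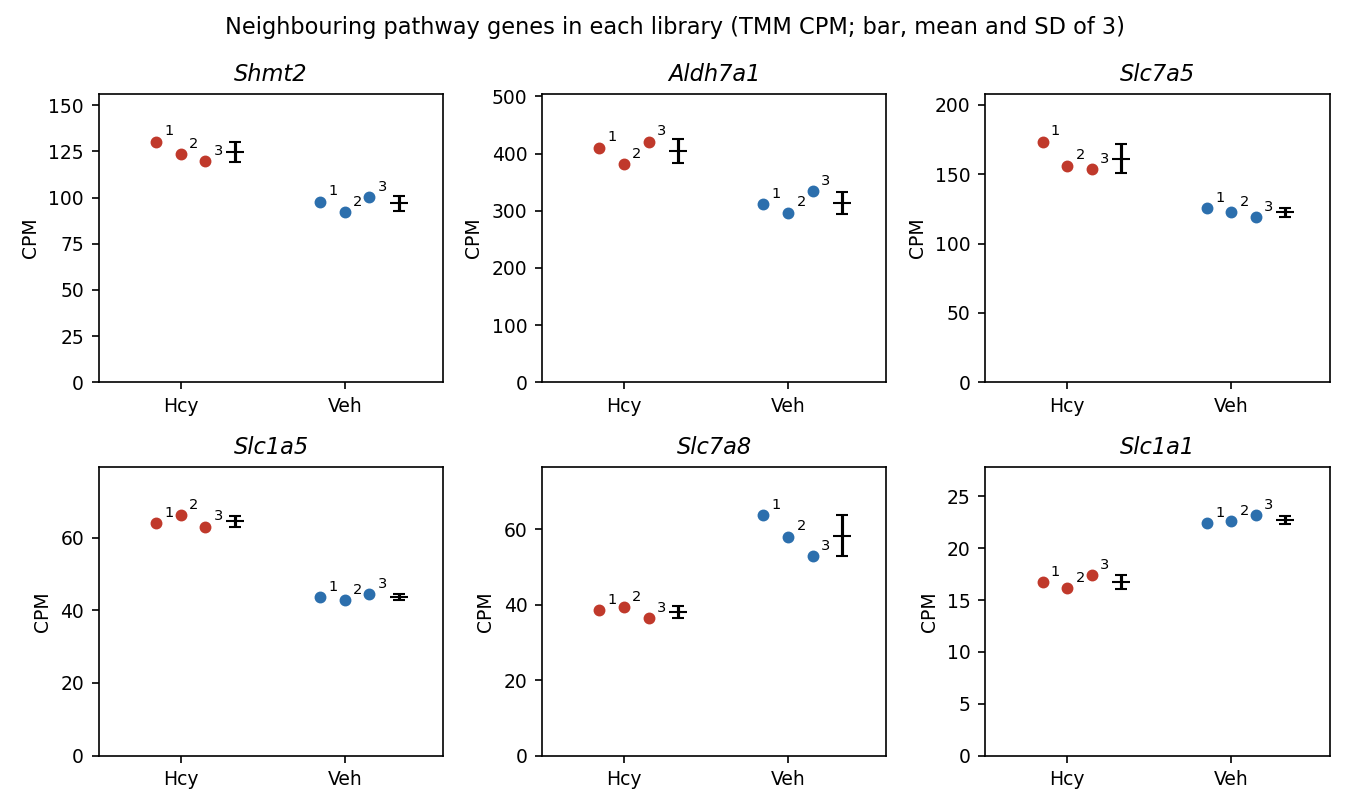
CPM of the 5 pathway genes that passed the test and of Slc1a1, which did not, in each library (points numbered by replicate, Hcy in red, Veh in blue), with the mean and SD of 3 libraries, each panel starting at 0. The Hcy and Veh libraries do not overlap in any of the 6 panels, with Slc7a8 and Slc1a1 lower in Hcy and the others higher.

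In the remaining 7 lists, 0 of 51 genes passed by edgeR (2.34% of all genes tested did) and 10 reached 0.05 before adjustment (13.4% did). DESeq2 called 4 of them, Ada, Mars1, Nnmt and Slc29a1, against 5.09% of the genes to which it gave an adjusted p. Without Veh replicate 3 edgeR called 8 of them, Blmh, Gclc, Itpr1, Itpr3, Mars1, Nnmt, Odc1 and Slc29a1, against 6.67% of all genes tested in that fit. Slc29a1 and Mars1, named here because both alternatives called them, were higher in Hcy. With all libraries they had log2 fold changes of 0.65 (adjusted p = 0.0692 by edgeR) and 0.27 (0.0743). For these lists the 2 most abundant genes per length are given, with log2 fold changes. Among the SAM-dependent methyltransferases of small molecules, Pcmt1, which repairs isoaspartyl residues in proteins, had -0.07 and Nnmt, which methylates nicotinamide, 0.41 (adjusted p = 0.120 by edgeR). Among genes that remove adenosine, Ada (adenosine deaminase) had -0.37 (adjusted p = 0.114 by edgeR) and Adk (adenosine kinase) 0.13. Among genes of polyamine synthesis and methionine salvage, Sat1 had -0.10 and Odc1, ornithine decarboxylase, 0.20. Got2 had 0.09 and the sulfide-oxidation gene Ethe1 -0.18 among genes of cysteine use. Pon2 had 0.13 and Blmh, a hydrolase that can open Hcy thiolactone, 0.24 among genes of Hcy activation and thiolactone breakdown. Nudt21 had 0.10 and Ythdc1 -0.02 in the list of SAM sensing and Mat2a RNA control. The IRBIT partners Itpr3 and Itpr1, both inositol trisphosphate receptors, had -0.19 and -0.20, and without Veh replicate 3 they had -0.30 and -0.34 (adjusted p = 0.0432 and 0.0482 by edgeR). Tagln and Acta2, the smooth muscle markers given above, fell as well, and their part in the 5 pathway calls was not tested.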

How the data were processed

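RNA-seq of 6 rBMEC libraries (3 Hcy, 3 Veh) was used. The authors deposited whole-number read counts for each gene, not normalized, with gene positions and lengths. The submitters' processing notes list fastp, HISAT2 2.2.1, StringTie 2.2.3, featureCounts 2.0.6 and the build mRatBN7.2, but the table names no build, and its positions are printed as listed and may not be in that build. The authors' table of their own DESeq2 comparison, which holds normalized values, fold changes and p-values, was not used. Groups were compared with edgeR 4.0.16 in R 4.3.3 (quasi-likelihood test, TMM factors, condition only, at least 10 counts summed over libraries). A gene passed at 0.05 or less after Benjamini-Hochberg adjustment. The default prior count was kept for fold changes, and intervals (95%) came from the coefficient without it. DESeq2 1.42.0 was an alternative, with other scalings, count filters, a replicate block and leaving out each library.

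The members and lists were chosen with earlier results of these data known. Named were all members, list genes that passed or otherwise the 2 most abundant per length, the 3 genes most like the member with the smallest p (Pearson r of log2 of CPM plus 0.5), and the leading or absent markers. Genes named outside this rule are marked as such or are list members at or near 0 counts. Some results are not reported here.

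The edgeR test was tried on simulated counts of 14374 genes for this comparison, where 200 genes carried a log2 change of 2. These genes were drawn from those above a minimum mean level, which Cbs did not reach. The test found 192 of them and made 18 wrong calls. Smaller changes were not simulated, so these numbers do not give the power to detect differences of the size seen for the members. The floor was taken as 3 counts in a library, which at depths of 14024997 to 16764584 counts is 0.178 to 0.215 CPM and covers counting error only.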

Additional observations from a re-analysis of the deposited data

How the results depend on the processing

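No member passed the test under any of the 12 alternatives that gave it an adjusted p. Cbs had no value with filterByExpr and no adjusted p with DESeq2. The median log2 fold change of the members tested stayed between -0.10 and -0.05, and 7 members had an interval inside a 2-fold change in each edgeR fit. The sign turned when a library was left out for Mtr, Mat2a, Ythdc1 and Mat1a. Mtr ran from -0.11 to 0.31, below 0 without Hcy replicate 2 or Veh replicate 3. Mat2a ran from -0.039 to 0.012, above 0 without Veh replicate 2. Ythdc1 ran from -0.057 to 0.015, above 0 without Hcy replicate 1 or Veh replicate 2. Mat1a was at -0.037 without Veh replicate 1 and at 1.06 without Hcy replicate 1. It had no value in the other fits that left out a library or with filterByExpr. None of these genes passed in any fit that gave it an adjusted p, and the cause of the turns was not tested.

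Genes passing numbered 612 with DESeq2 and 80 to 957 when a library was left out, the highest without Veh replicate 3. With the fold threshold they numbered 109 without a low-count filter and 39 to 112 when a library was left out. Pathway genes higher in Hcy numbered 10 with DESeq2 and 1 to 12 when a library was left out. Those lower in Hcy numbered 4 with DESeq2, 2 with filterByExpr and 0 to 6 when a library was left out. Libraries of the same replicate number did not all deviate together (correlations of -0.02, 0.16 and 0.05, with 3 of 6 libraries closest to their own number). They were therefore not taken as pairs in the main fit, although these values cannot show that such libraries share nothing but a number. With the replicate block 298 genes passed, 0 of them members, and of the 5 pathway calls that of Shmt2 was lost (adjusted p = 0.0758). Cbs and LOC103691744 had few counts, and their intervals reached beyond a 2-fold change.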
